A study of Arabidopsis thaliana with 4 samples.

Results

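The SAUR (SMALL AUXIN UP RNA) genes described here are 43 listed loci of Arabidopsis thaliana, grouped by where they lie in the genome. Of these, 8 form a tandem cluster on chromosome 1, 4 a cluster on chromosome 3, 7 and 4 the clusters A and B on chromosome 4, and 6 a cluster on chromosome 5, while 14 are single genes (an adjacent pair, SAUR53 and SAUR54, among them). They are 43 of the 17018 genes that could be counted and of the 37899 annotated nuclear genes. The list was drawn up with earlier results of these same libraries known, so the differences between genotypes below are a description of the members and carry no test. The gene annotation holds another 8 SAUR genes in the countable part of the genome that are not members, and they were kept as a list of their own.

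The study sequenced the poly(A) RNA of leaves from 3-week-old plants grown in long days, with 1 library for each of 4 genotypes in the Col-0 ecotype. The genotypes were wild-type Col-0, the single mutant suvr5-1, a double mutant of ldl1-2 with ldl2 (ldl1 ldl2), and a triple mutant that joins the 3 mutations (suvr5 ldl1 ldl2). SUVR5 encodes a zinc finger protein with a SET domain, the domain of histone methyltransferases, and LDL1 and LDL2 are relatives of the human histone demethylase LSD1. The comparison asks how leaf transcripts differ when either or both arms are missing. With 1 library per genotype no difference has a replicate check, and the genotype, the plants harvested and the library cannot be told apart.

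SAUR genes encode small plant proteins, and many of their transcripts accumulate within minutes of auxin treatment. The best studied, the SAUR19 subfamily, inhibit type 2C protein phosphatases of the D clade (PP2C.D), which keeps plasma membrane proton pumps active, acidifies the wall and promotes cell expansion. Tandem SAUR genes are usually close paralogs of each other, so neighbours in a cluster tend to belong to one subfamily. In leaves, members of the family respond to auxin, light, temperature and age.

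The libraries held 10406023 to 15083462 mapped reads, of which 2581380 to 4604705 fell on genes that could be counted, the suvr5-1 library being the deepest. Summed levels are given in RPM, reads scaled to the reads on all countable genes of the library, and levels of single genes in RPKM, RPM per kilobase of exon, where 3 reads on a gene of 1 kb correspond to 0.652 to 1.16 RPKM. Of the mutated genes, SUVR5 and LDL1 were not analysed here. LDL2 was covered by 25 Col-0 reads and 26 suvr5-1 reads, against 8 of the double mutant and 5 of the triple mutant. The median log2 ratio over all genes with at least 20 reads was 0.01 for suvr5-1 against Col-0, -0.04 for the double mutant and 0.13 for the triple mutant, so ratios in the triple mutant are read against 0.13.

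SAUR transcripts were most abundant in suvr5-1. Summed over all 43 genes, SAUR reads came to 310 RPM in Col-0 (913 reads), 732 in suvr5-1 (3370 reads), 416 in the double mutant (1073 reads) and 365 in the triple mutant (1088 reads). The sum was therefore 2.36 times that of Col-0 in suvr5-1 (95% interval 2.20 to 2.55), 1.34 times in the double mutant (1.23 to 1.47) and 1.18 times in the triple mutant (1.08 to 1.29). These intervals are exact binomial intervals of the read counts. They cover counting error only, since reads copied by PCR are not independent molecules and plants vary. When each position and strand was counted once, the sum in the triple mutant was 0.998 times that of Col-0, on the other side of 1.

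**Figure D1:**
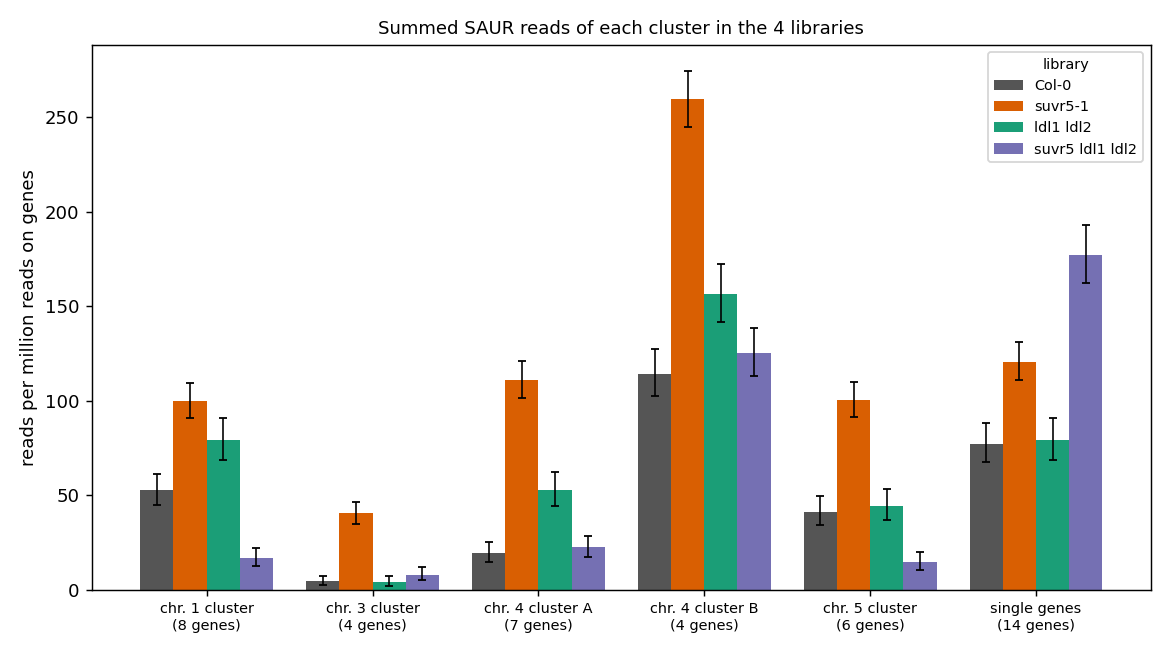
Summed reads of the SAUR genes of each cluster and of the single genes, in RPM, in the 4 libraries, with bars starting at 0 and error bars showing exact Poisson 95% intervals (counting error only). The suvr5-1 bar is the tallest in all 5 clusters, from 40.4 on chromosome 3 to 260 in cluster B of chromosome 4, whereas the single genes are highest in the triple mutant at 177.

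Of the 43 genes, 40 had at least 1 read and 29 had at least 20 reads over the 4 libraries. Of those 29, 6 reached 20 reads only with the suvr5-1 library, which was the deepest. Counts over the 29 genes are therefore given as a description. In suvr5-1, 20 of the 29 genes lay over 2-fold above Col-0 and 0 lay over 2-fold below, with a median log2 ratio of 1.46. Of all genes with at least 20 reads, 11.8% lay over 2-fold above Col-0 in that comparison and 8.68% over 2-fold below. Kept instead by their reads in the other 3 libraries, 15 of 23 SAUR genes were over 2-fold higher and the median was 1.28, beside 10.0% of all genes kept in that way.

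The double and triple mutants gave mixed pictures. In the double mutant, 10 of the 28 genes with a ratio were over 2-fold higher than Col-0 and 4 over 2-fold lower (median log2 ratio 0.40), against 14.2% and 11.6% of all genes. With each position counted once, 3 of 24 were over 2-fold higher in the double mutant and 3 of 25 in the triple mutant. The double mutant's count thus depended on how repeated positions were counted, and the share of all genes under that counting is not given here. In the triple mutant 9 of 28 lay over 2-fold below Col-0 and 5 over 2-fold above it, with a median of -0.39, against 8.95% and 16.8% of all genes. The sign of that last median was not stable, since it was 0.21 over the members with no more than 10% of repeated sequence (explained with the chromosome 1 cluster). Among all genes with reads in the range of the members (20 to 1122 reads), 13.0% were over 2-fold higher in suvr5-1, 15.4% in the double mutant and 17.9% in the triple mutant.

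The 29 genes can also be sorted by the library in which each was highest. That library was suvr5-1 for 23 of them, the double mutant for 4, the triple mutant for 2 and Col-0 for 0. Of all genes with at least 20 reads, 19.7% were highest in suvr5-1, 22.8% in the double mutant, 34.2% in the triple mutant and 23.3% in Col-0. The lowest library was the triple mutant for 14 (20.5% of all genes), Col-0 for 8 (26.4%), the double mutant for 7 (30.2%) and suvr5-1 for 0 (23.0%), with 1 of the Col-0 cases, SAUR28, tied with the triple mutant at 0 reads. Set directly against suvr5-1, the triple mutant had 22 of the 29 members over 2-fold lower and 1 over 2-fold higher, beside 9.03% and 14.8% of all genes. Against the double mutant, the triple mutant had 13 members over 2-fold lower and 6 higher, beside 10.4% and 16.5% of all genes. The double mutant had 14 members over 2-fold lower than suvr5-1 and 1 higher, beside 11.7% and 11.4% of all genes. Since 6 of the 29 reached 20 reads only with the suvr5-1 library, the filter can favour that library in these counts. Kept instead by the other 3 libraries, 17 of 23 members were over 2-fold higher in suvr5-1 than in the triple mutant. Against the double mutant 9 of 23 were, with 1 lower in each comparison. Of all genes kept in that way, 684 of 9205 and 931 of 9201 were over 2-fold higher. These comparisons share their libraries and are not separate pieces of evidence.

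**Figure D2:**
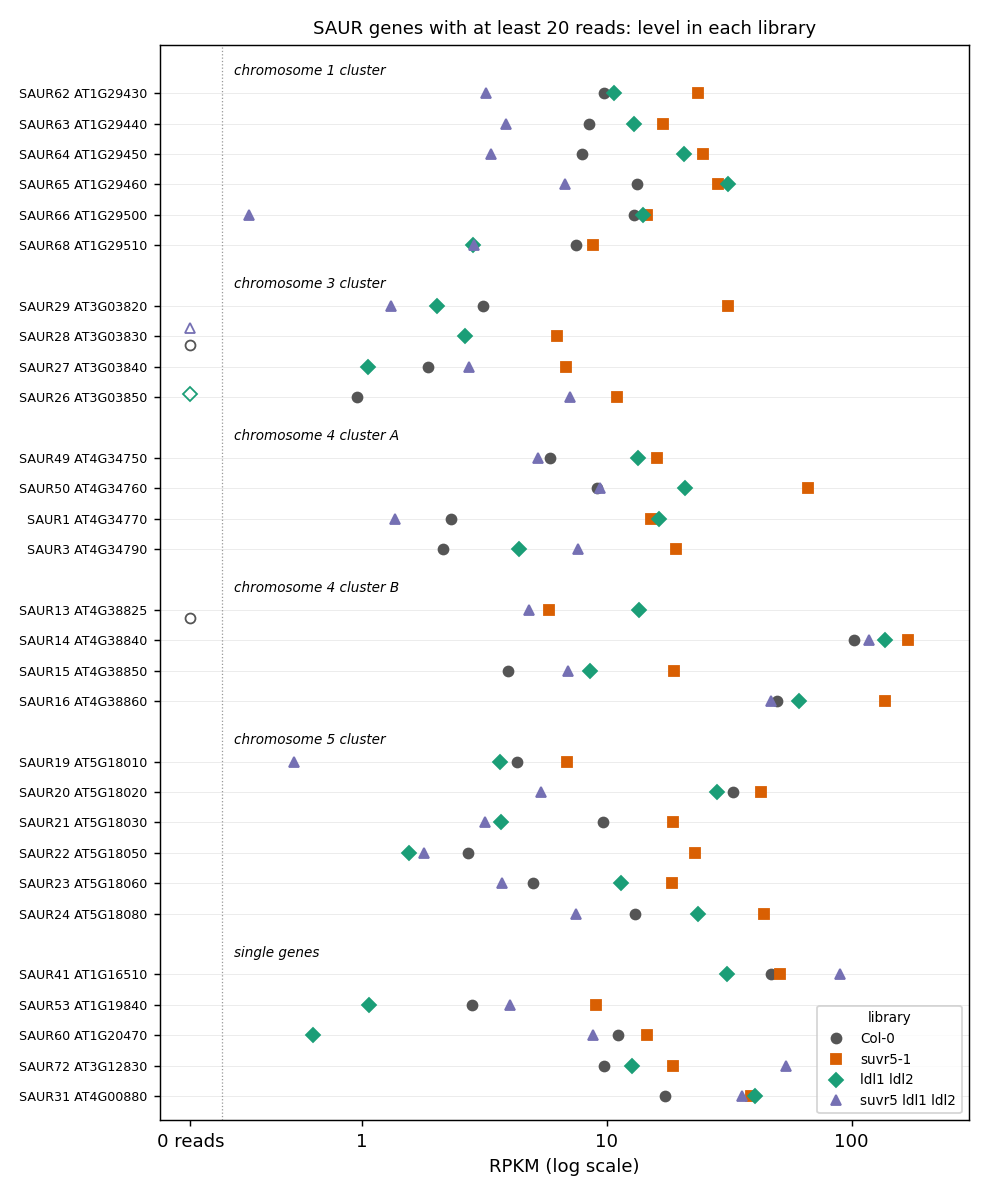
RPKM on a log scale of the 29 SAUR genes with at least 20 reads, 1 row a gene and 1 symbol a library, with open symbols at the left edge for libraries with 0 reads. Orange squares (suvr5-1) lie farthest right in 23 rows, and purple triangles (triple mutant) lie farthest left in most rows of the chromosome 1 and chromosome 5 clusters but farthest right for SAUR41 and SAUR72.

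A rule for a changed gene was taken as over 4-fold with an adjusted P under 0.01 in Fisher's exact test of the read counts, which compares libraries, not genotypes. It follows the wording of the study's text and figure legends, while the formula in its methods puts the same limit on the log2 scale, which is far stricter and was not applied here. By that rule 8 members were called higher and 0 lower in suvr5-1, where 2.57% and 1.87% of all tested genes were called. In the double mutant it called 2 members higher and 1 lower (4.30% and 2.05% of tested genes), and in the triple mutant 2 higher and 2 lower (4.83% and 1.42%). Since the members were listed with this contrast known, nothing further is read from these calls.

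The chromosome 1 cluster (SAUR61 to SAUR68, loci AT1G29420 to AT1G29510) belongs to the SAUR63 subfamily, whose products promote the elongation of hypocotyls and stamen filaments. Its summed level was 52.6 RPM in Col-0, 99.9 in suvr5-1, 79.0 in the double mutant and 16.8 in the triple mutant. The sum was thus 1.90 times Col-0 in suvr5-1 (1.58 to 2.30) and 1.50 times in the double mutant (1.21 to 1.87), but 0.319 times in the triple mutant (0.227 to 0.441). Counted once per position, the double mutant's value came to 1.05. The triple mutant lay below Col-0 in 6 of the 6 genes with at least 20 reads, and below suvr5-1 by more than 2-fold in all 6.

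SAUR65 (AT1G29460), the most abundant gene of this cluster, had 13.3 RPKM in Col-0, 28.4 in suvr5-1, 31.2 in the double mutant and 6.74 in the triple mutant. For SAUR64 (AT1G29450) the values were 7.93, 24.7, 20.7 and 3.36 RPKM in the same order. Both were high in the single and double mutants and low in the triple mutant. SAUR62 (AT1G29430) was highest in suvr5-1, at 23.7 RPKM, beside 9.76 in Col-0, 10.7 in the double mutant and 3.21 in the triple mutant. SAUR66 (AT1G29500) stood apart. Its 37 reads in Col-0 (13.0 RPKM), 65 in suvr5-1 (14.6 RPKM) and 35 in the double mutant (14.0 RPKM) gave similar levels, while the triple mutant had 1 read (0.346 RPKM), a ratio to Col-0 of 0.0267 (0.000658 to 0.158).

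The remaining genes of the chromosome 1 cluster were weaker. SAUR63 (AT1G29440) had the order of SAUR64 with 8.45, 17.0, 12.9 and 3.90 RPKM. The intervals of its ratios to Col-0 in the double mutant (0.741 to 3.20) and the triple mutant (0.159 to 1.20) include 1. SAUR68 (AT1G29510) was lower in the double mutant (2.85 RPKM) and the triple mutant (2.87) than in Col-0 (7.47) and suvr5-1 (8.77). These values rest on 6 reads in the double mutant and 7 in the triple mutant. The intervals of their ratios to Col-0 were 0.124 to 1.001, which just includes 1, and 0.136 to 0.964. SAUR61 (AT1G29420) had 5, 5, 0 and 0 reads, and AT1G29490 had 0 reads in all 4 libraries. Up to 49.2% of the read-length words of SAUR62, SAUR63 and SAUR68 occur elsewhere in the genome. Such positions had reads less often than others in the deposited files (3.23% against 8.36% over the SAUR genes with both kinds), so the levels of these 3 genes may be underestimated in every library.

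The chromosome 5 cluster holds SAUR19 to SAUR24 (AT5G18010 to AT5G18080), the growth-promoting genes for which PP2C.D inhibition was described. Its sums were 41.4 RPM in Col-0, 101 in suvr5-1, 44.6 in the double mutant and 14.7 in the triple mutant. Relative to Col-0 this was 2.43 times (1.99 to 2.99), 1.08 times (0.827 to 1.40) and 0.356 times (0.247 to 0.507). In 6 of 6 genes suvr5-1 was the highest library, and in 5 of 6 the triple mutant was the lowest.

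SAUR20 (AT5G18020) had 32.9 RPKM in Col-0, 42.6 in suvr5-1, 28.2 in the double mutant and 5.42 in the triple mutant. It was at 0.165 times Col-0 in the triple mutant (0.0673 to 0.351), and its ratio in suvr5-1 was the smallest of the cluster (1.29 times, 0.907 to 1.87). SAUR24 (AT5G18080) had 13.0, 43.7, 23.5 and 7.49 RPKM, so that both suvr5-1 and the double mutant lay above Col-0. SAUR23 (AT5G18060) had the same order at a lower level, with 5.02, 18.5, 11.5 and 3.72 RPKM. SAUR22 (AT5G18050) stood highest in suvr5-1, at 22.97 RPKM against 2.72 in Col-0, 1.56 in the double mutant and 1.79 in the triple mutant. That is 8.43 times Col-0 (3.71 to 23.7) on 6 Col-0 reads.

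SAUR19 (AT5G18010) was weak throughout, with 4.29, 6.86, 3.67 and 0.529 RPKM (8, 20, 6 and 1 reads). SAUR21 (AT5G18030) had 9.70 RPKM in Col-0 and 18.6 in suvr5-1, against 3.69 in the double mutant and 3.20 in the triple mutant. All 6 genes of this cluster carry over 10% of repeated read-length words (11.8 to 42.5%), so their levels may be underestimated too. Leaving out every gene over 10% repeated removes this cluster, SAUR62, SAUR63 and SAUR68. The number of members over 2-fold lower in the triple mutant then falls from 9 to 3 of 19 genes. The share of all genes under that limit is not given here.

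**Figure D3:**
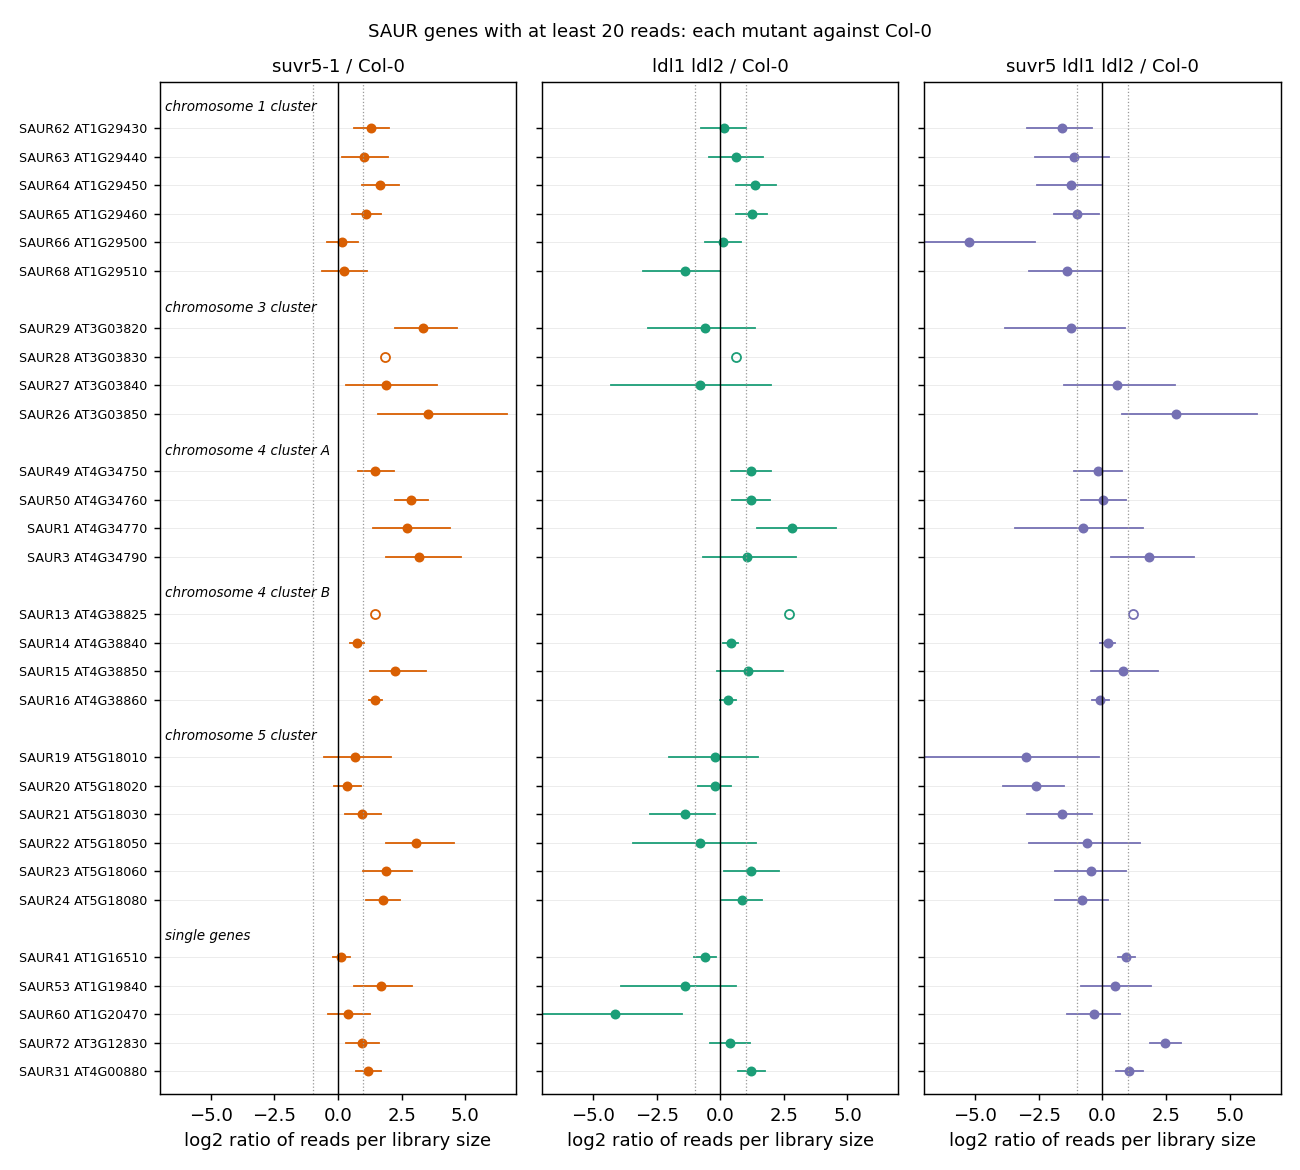
Log2 ratio of each mutant to Col-0 for the 29 SAUR genes with at least 20 reads, with exact binomial 95% intervals of the read counts (lines that meet the frame extend beyond it), dotted lines at 2-fold and open circles for ratios in which a library with 0 reads was set at 3. All 29 points lie right of 0 for suvr5-1, and all 12 points of the chromosome 1 and chromosome 5 clusters lie left of 0 for the triple mutant.

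Cluster A of chromosome 4 (AT4G34750 to AT4G34810) was above Col-0 in both suvr5-1 and the double mutant. It summed to 19.7 RPM in Col-0, 111 in suvr5-1, 52.7 in the double mutant and 22.5 in the triple mutant, or 5.63 (4.29 to 7.52), 2.68 (1.96 to 3.71) and 1.14 times Col-0 (0.791 to 1.65). All 4 of its genes with at least 20 reads were over 2-fold higher than Col-0 in suvr5-1 and in the double mutant (11.8% and 14.2% of all genes). In the double mutant SAUR3 had 9 reads, and the interval of its ratio (0.619 to 7.81) includes 1. None was over 2-fold lower in the triple mutant, but against suvr5-1 the triple mutant was over 2-fold lower in all 4. The cluster's ratio in the double mutant came to 1.89 with each position counted once. Its reads there lay on few positions, 15 for SAUR49, 15 for SAUR50, 12 for SAUR1 and 2 for SAUR3, against 16, 14, 3 and 3 in Col-0. The count of 4 genes in the double mutant therefore rests largely on repeated positions. Ratios of these genes with each position counted once are not given here.

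SAUR50 (AT4G34760), a light-responsive gene of opening cotyledons, was the most abundant, with 9.12 RPKM in Col-0, 66.2 in suvr5-1, 20.8 in the double mutant and 9.38 in the triple mutant. Col-0 and the triple mutant were level and suvr5-1 stood out at 7.26 times Col-0 (4.78 to 11.5). Without SAUR50 the cluster was still 4.48 times Col-0 in suvr5-1. SAUR49 (AT4G34750), known as a promoter of leaf senescence, had 5.86, 16.0, 13.4 and 5.26 RPKM.

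SAUR1 (AT4G34770) was about equally high in suvr5-1 (15.1 RPKM, 51 reads) and the double mutant (16.4 RPKM, 31 reads), beside 2.32 RPKM in Col-0 and 1.37 in the triple mutant (5 and 3 reads). SAUR3 (AT4G34790) differed from its neighbours in the triple mutant, which at 7.61 RPKM lay above Col-0 (2.14) and the double mutant (4.40) and below suvr5-1 (19.2). The other 3 genes had under 20 reads each. SAUR4 (AT4G34800) had 2, 11, 0 and 1 reads and SAUR5 (AT4G34810) had 0, 12, 4 and 0, with an exact lower bound of 1.78 for its suvr5-1 ratio, and SAUR2 (AT4G34780) had 0 reads in every library.

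Cluster B of chromosome 4 (AT4G38825 to AT4G38860) contains the best expressed SAUR genes of these leaves, together with SAUR15 (AT4G38850), a classic auxin-induced transcript. Its sum was 114 RPM in Col-0, 260 in suvr5-1, 157 in the double mutant and 125 in the triple mutant. In suvr5-1 this was 2.27 times Col-0 (2.01 to 2.57), in the double mutant 1.37 times (1.18 to 1.59) and in the triple mutant 1.10 times (0.944 to 1.27), or 0.943 times with each position counted once. No gene of this cluster was over 2-fold lower than Col-0 in any mutant.

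SAUR14 (AT4G38840) had 102 RPKM in Col-0, 171 in suvr5-1, 137 in the double mutant and 118 in the triple mutant, the narrowest spread among the members. SAUR16 (AT4G38860), like SAUR50 induced by light in cotyledons, had 49.5, 136, 60.99 and 46.7 RPKM, with suvr5-1 at 2.75 times Col-0 (2.31 to 3.31) and the other 3 libraries close together. These 2 genes had 1042 and 1122 reads in all, the most of any member, so their ratios carry the least counting error. SAUR15 had 3.95, 18.8, 8.52 and 6.94 RPKM, so that all 3 mutants lay above Col-0, which had 9 reads. Only the interval of the suvr5-1 ratio (2.37 to 10.9) excluded 1. It was 0.910 to 5.49 in the double mutant and 0.731 to 4.51 in the triple mutant.

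SAUR13 (AT4G38825) had 0 reads in Col-0 against 13 in suvr5-1, 17 in the double mutant and 7 in the triple mutant. With Col-0 set at 3 reads, the double mutant was at least 6.47-fold higher, suvr5-1 at least 2.78-fold and the triple mutant at least 2.31-fold. The exact lower bounds, which let the Col-0 count vary further, were 4.71, 1.95 and 1.42. However, 89.3% of its exon bases are shared with the locus AT4G38820, which counted the same reads, and without strand in the counting those reads cannot be assigned to either gene.

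The chromosome 3 cluster (SAUR26 to SAUR29, AT3G03820 to AT3G03850) was the weakest, and includes genes of the SAUR26 subfamily, known for differences in rosette growth between Arabidopsis accessions. It summed to 4.41 RPM in Col-0 (13 reads), 40.4 in suvr5-1 (186 reads), 3.87 in the double mutant (10 reads) and 8.04 in the triple mutant (24 reads). The suvr5-1 sum was 9.16 times Col-0 (5.23 to 17.5), whereas the double mutant was at 0.879 times (0.345 to 2.17) and the triple mutant at 1.82 times (0.892 to 3.90), both with intervals that include 1. All 4 genes reached 20 reads only through suvr5-1.

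SAUR29 (AT3G03820) had 31.4 RPKM in suvr5-1 (110 reads) against 3.12 in Col-0, 2.04 in the double mutant and 1.32 in the triple mutant (7, 4 and 3 reads). SAUR28 (AT3G03830) had 17 reads in suvr5-1 and 4 in the double mutant, with 0 in Col-0 and in the triple mutant, so suvr5-1 was at least 3.63-fold higher than 3 reads of Col-0 would give, and the exact lower bound of that ratio was 2.64. For the double mutant the exact lower bound was 0.754, so its 4 reads did not differ from 0 beyond counting error. SAUR27 (AT3G03840) had 4, 23, 2 and 6 reads, or 1.86, 6.84, 1.06 and 2.75 RPKM. SAUR26 (AT3G03850) was the exception in that the triple mutant was also high, with 0.953 RPKM in Col-0, 10.98 in suvr5-1, 0 in the double mutant and 7.06 in the triple mutant (2, 36, 0 and 15 reads). Without SAUR29 the cluster was 8.11 times Col-0 in suvr5-1 and 3.46 times in the triple mutant (1.35 to 10.5), so the triple mutant's value rests on whether SAUR29 is included.

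The single genes had a different order of the libraries in their sums from that of the clusters. Summed over the 14, there were 77.3 RPM in Col-0, 121 in suvr5-1, 79.0 in the double mutant and 177 in the triple mutant, or 1.56 (1.34 to 1.83), 1.02 (0.842 to 1.24) and 2.29 times Col-0 (1.96 to 2.69). The triple mutant was at 1.47 times suvr5-1 (1.30 to 1.66), whereas in the 5 clusters it was at 0.147 to 0.483 times suvr5-1. Only 5 of the 14 had at least 20 reads, and SAUR41, SAUR72 and SAUR31 supplied most of the sum. The other 11 single genes were together at 1.98, 0.269 and 1.22 times Col-0 in suvr5-1, the double mutant and the triple mutant. In these 11 the triple mutant was at 0.617 times suvr5-1 (0.421 to 0.891), below it as in the clusters. The contrast with the clusters thus rests on the leading genes. With all nuclear reads as library size, the value of 1.47 over the 14 genes came to 1.19 (1.06 to 1.35).

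SAUR72 (AT3G12830) and SAUR41 (AT1G16510) belong to the SAUR41 subfamily, and both were highest in the triple mutant. AT3G12830 was also measured by RT-qPCR, and those primers are shown because they place the assayed stretch within the transcript:
JP9816: ttccgattcacagcgacctagc
JP9817: ttgcttctttgagcggcgagtc
Each primer of 22 bases had 1 exact match in the TAIR10.1 genome, JP9816 on the minus strand of chromosome 3 at positions 4079432 to 4079453 and JP9817 on the plus strand at 4079378 to 4079399. Both lie in the coding sequence of the single exon of AT3G12830, a gene of the minus strand at 4078651 to 4079627, and enclose 76 bp.

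In the libraries SAUR72 had 9.72 RPKM in Col-0 (28 reads), 18.7 in suvr5-1 (84 reads), 12.7 in the double mutant (32 reads) and 53.8 in the triple mutant (157 reads). That is 1.92 times Col-0 in suvr5-1 (1.24 to 3.06), 1.31 times in the double mutant (0.761 to 2.25) and 5.54 times in the triple mutant (3.69 to 8.60). SAUR41 had 46.7, 51.1, 31.1 and 89.9 RPKM, so suvr5-1 was level with Col-0 (1.09 times, 0.869 to 1.38), the double mutant lower (0.666 times, 0.489 to 0.902) and the triple mutant higher (1.93 times, 1.54 to 2.42).

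SAUR31 (AT4G00880) was similarly high in all 3 mutants, with 39.0 RPKM in suvr5-1, 40.4 in the double mutant and 35.7 in the triple mutant against 17.3 in Col-0. Another annotated gene shares 45.9% of its exon bases. SAUR60 (AT1G20470) was lowest in the double mutant, where it had 1 read (0.635 RPKM) beside 11.1 RPKM in Col-0, 14.6 in suvr5-1 and 8.79 in the triple mutant. The ratio of the double mutant to Col-0 was 0.0571 (0.00138 to 0.357), and 72.8% of the exon bases of this gene are shared with another. SAUR53 (AT1G19840) had 9, 45, 3 and 13 reads, or 2.82, 9.02, 1.07 and 4.02 RPKM.

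The other 9 single genes were barely detected in leaves. SAUR9 (AT4G36110) had 13 of its 14 reads in suvr5-1 and the remaining 1 in the triple mutant, and its suvr5-1 ratio to the 0 reads of Col-0 had an exact lower bound of 1.95. SAUR35 (AT4G12410) had 10 reads spread as 3, 3, 1 and 3, and SAUR70 (AT5G20810) had 3 in suvr5-1 and 4 in the triple mutant. SAUR25 (AT4G13790), SAUR34 (AT4G22620), SAUR37 (AT4G31320), SAUR54 (AT1G19830) and SAUR74 (AT3G12955) had 1 to 4 reads each, and SAUR69 (AT5G10990) had 0. For these genes other than SAUR9, 10 reads or fewer in all leave little room to detect a difference.

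Of the 8 annotated SAUR genes outside the list, SAUR47 (AT3G20220) alone reached 20 reads, with 1 in Col-0, 13 in suvr5-1, 0 in the double mutant and 6 in the triple mutant. SAUR76 (AT5G20820) had 0, 9, 0 and 1 reads. Most of these few reads were in the deepest library. Scaled by library size, SAUR47 in suvr5-1 was 8.33 times Col-0 (1.25 to 354), on 1 Col-0 read. For SAUR76 the exact lower bound of the suvr5-1 ratio was 1.26. SAUR48 had 2, 1, 4 and 0 reads and SAUR44 had 0, 0, 0 and 2, and SAUR17, SAUR73, SAUR75 and SAUR77 had 0.

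Genes beside the SAUR genes allow the clusters to be set against their surroundings. There are 78 other countable genes inside the 5 clusters or among the 5 nearest on each side, of which 39 had at least 20 reads. In suvr5-1 their median log2 ratio was -0.04, with 2 of 39 over 2-fold higher and 4 lower (11.8% and 8.68% of all genes), whereas in the same stretches the cluster medians of the SAUR genes were 1.05 on chromosome 1, 2.61 on chromosome 3, 2.78 and 1.47 on chromosome 4 (A and B) and 1.35 on chromosome 5. The 4 genes of chromosome 3 and 2 of the 6 on chromosome 5 had 20 reads only with the suvr5-1 library, so those medians are partly set by the filter. In the double mutant the neighbours' median was 0.05, with 5 over 2-fold higher and 4 lower (14.2% and 11.6% of all genes). In the triple mutant it was 0.15, with 7 higher and 2 lower (16.8% and 8.95% of all genes), while the SAUR medians were -1.31 on chromosome 1 and -1.20 on chromosome 5. AT1G29470, a methyltransferase gene inside the chromosome 1 cluster with 801 to 1632 reads, was at 0.964, 0.844 and 0.750 times Col-0 in the 3 mutants. The neighbours counted include short snoRNA genes on chromosome 1. Among them AT1G06263 (90 bp, with 5, 0, 10 and 13 reads) was over 2-fold lower in suvr5-1 and higher in the other mutants. Some neighbours overlap another gene and count the same reads, as AT3G01335 shares 100% of its exon bases. The neighbour medians and counts rest partly on such entries.

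Of these neighbours 3 were over 4-fold from Col-0 in some mutant. AT1G29520, an AWPM-19-like gene next to SAUR68, had 1.93 RPKM in Col-0, 17.3 in suvr5-1, 4.42 in the double mutant and 16.8 in the triple mutant, and by the 4-fold rule it was called higher in suvr5-1 and in the triple mutant. Unlike the chromosome 1 SAUR genes it was thus high in the triple mutant. AT4G38820 is the locus that shares the reads of SAUR13 and is among the neighbours counted higher. AT5G02875, downstream of SAUR24, had 8, 15, 3 and 2 reads, a ratio of 0.247 in the triple mutant (0.0256 to 1.24), and passed the rule in no mutant. The neighbours and the SAUR genes are divided by the same Col-0 library, so their ratios are not independent.

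**Figure D4:**
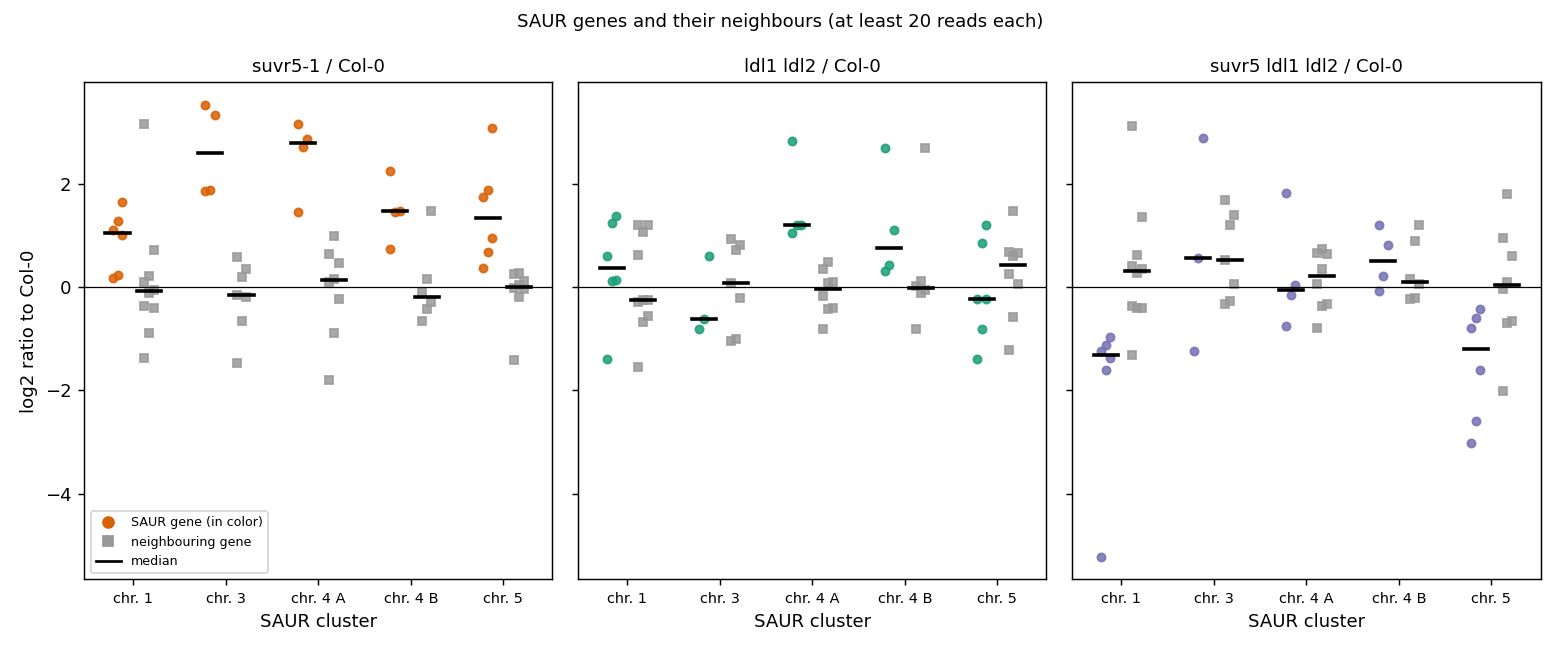
Log2 ratio to Col-0 of SAUR genes (colored circles) and of their neighbouring genes (grey squares) with at least 20 reads, by cluster, 1 panel for each mutant, with black lines for medians. In suvr5-1 the SAUR medians run from 1.05 to 2.78 and the neighbour medians lie near 0, and in the triple mutant the SAUR genes of chromosomes 1 and 5 lie below 0 while their neighbours lie on both sides.

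Genes of the pathway in which SAUR proteins act were read from lists, with all members of at least 20 reads counted. Among the PP2C.D phosphatases these were 6 of 9. AT5G02760 of this clade had 16.7 RPKM in Col-0, 73.5 in suvr5-1, 58.5 in the double mutant and 6.30 in the triple mutant. Like SAUR64 and SAUR65 it was above Col-0 in the single and double mutants and below it in the triple mutant. The ratios were 4.40 (3.45 to 5.67), 3.50 (2.69 to 4.60) and 0.377 times Col-0 (0.237 to 0.585). AT5G06750 was higher in the double mutant (log2 ratio 1.43) and in the triple mutant (1.50), AT3G12620 just past 2-fold in the double mutant (1.01), and no other phosphatase gene of the list passed 2-fold. Among all genes with at least 20 reads, 11.8% were over 2-fold higher in suvr5-1, 14.2% in the double mutant and 16.8% in the triple mutant. In the triple mutant 8.95% were over 2-fold lower. Of 11 proton pump genes, the targets of these phosphatases, 1 was counted. HA2 (AT4G30190) had 48.0, 87.0, 58.6 and 85.5 RPKM.

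Among the TIR1/AFB auxin receptor genes 3 of 6 were counted. GRH1 (AT4G03190) was over 2-fold higher in suvr5-1 and the triple mutant, with 3.79, 8.69, 6.33 and 8.22 RPKM. None of the 6 ARF transcription factor genes counted (of 15) was over 2-fold higher in any mutant, and 2 were over 2-fold lower in suvr5-1, namely MP (AT1G19850, log2 ratio -1.58 on 21 and 11 reads) and ARF19 (AT1G19220, -1.16). The shares of all genes over 2-fold higher were 11.8% in suvr5-1, 14.2% in the double mutant and 16.8% in the triple mutant. In suvr5-1 8.68% were over 2-fold lower. On so few genes these counts are not read further.

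The Aux/IAA genes encode repressors of auxin signalling that are themselves auxin-induced, and 14 of 15 were counted. In suvr5-1 3 of them were over 2-fold higher and 1 lower, in the double mutant 4 and 4, and in the triple mutant 1 and 2. Of all genes with at least 20 reads, 11.8% and 8.68% passed in suvr5-1, 14.2% and 11.6% in the double mutant and 16.8% and 8.95% in the triple mutant, so on 14 genes several of these counts are near the shares of all genes. IAA19 (AT3G15540) had 3.69 RPKM in Col-0, 32.9 in suvr5-1, 26.9 in the double mutant and 8.29 in the triple mutant. SHY2 (AT1G04240) had 6.26, 15.6, 24.3 and 3.21 RPKM. Both were thus highest in the single or double mutant. IAA29 (AT4G32280) was highest in suvr5-1 and lower than Col-0 in the other mutants, with 4.49, 16.3, 1.51 and 0.783 RPKM. IAA1 (AT4G14560) had 32, 49, 0 and 11 reads and was called lower in the double mutant by the 4-fold rule. The rest that passed 2-fold were IAA14 and IAA5 (both higher, IAA5 from 0 Col-0 reads set at 3) and IAA10 (lower) in the double mutant, and AXR3 (lower) in suvr5-1 and the double mutant.

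The hour of harvest is not given in the sources used here, and several SAUR genes are known to follow the time of day. Of the 10 listed clock genes 6 were counted. RVE1 (AT5G17300) and LHY (AT1G01060), both of the morning, were lower in the double mutant (log2 ratios -1.91 and -1.01), and PRR7 (AT5G02810) was lower in the triple mutant (-1.38). None passed 2-fold in suvr5-1. The shares of all genes over 2-fold lower were 11.6% in the double mutant and 8.95% in the triple mutant. Their part in the SAUR differences was not tested.

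Marker genes were read for the make-up of the samples. The 8 countable photosynthetic genes of leaf cells summed to 114000 RPKM in Col-0, 116400 in suvr5-1, 104600 in the double mutant and 71340 in the triple mutant. Those of dividing cells (5 of 8 countable) summed to 1.77, 7.42, 4.73 and 9.56 RPKM. These sums rest on 8, 56, 21 and 45 reads, and only 2 of the genes had at least 20 reads. Those of flowers (3 of 4) summed to 1.33, 6.70, 17.4 and 7.37 RPKM. SEP3 had 5, 28, 51 and 15 reads, AG had 0, 4, 10 and 18, and PI had 0, 9, 0 and 2. In the double mutant SEP3 supplied 15.5 RPKM of the sum, and its 51 reads lay on 7 positions. Of the 2 countable root markers EXPA7 was at 0 in every library and PYK10 had 14, 14, 7 and 13 reads, and of the 2 seed markers OLEO1 was at 0 and CRU3 had 0, 0, 1 and 3 reads. The part of dividing or floral cells in the SAUR values was not tested, and in bulk leaves a larger number of cells of a type cannot be told apart from more RNA per cell. Of the reads on the 24 members with at least 20 reads that overlap no other gene, 55.3% in Col-0, 57.3% in suvr5-1, 49.5% in the double mutant and 55.2% in the triple mutant lay on the 3′ side of the gene's midpoint. Single parts differed more between libraries. The share ran from 46.3% (double mutant) to 73.2% (suvr5-1) in the chromosome 1 cluster. In the single genes it ran from 49.5% (double mutant) to 78.3% (Col-0), and in the chromosome 5 cluster from 54.5% to 60.9%.

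The letters upstream of the genes were searched for what the members share. The octamer TACTAGTA, selected by the zinc fingers of SUVR5 in a DNA binding assay, reads the same on both strands. The specific band-shift probe holds a close version of it, shown with the aligned letters in capitals, which match the octamer at 7 of 8 positions:
JP8489: gtagaaTACTAGTTgataac
In the 1000 bp before the annotated gene starts of TAIR10.1, the exact octamer was found for 2 of 43 SAUR genes (4.65%), beside 2.71% of all 17018 countable genes. The 2 genes were SAUR66, 770 bp before its start, and SAUR31, 365 bp before its start. The study used another measure, scoring promoters with a frequency matrix of the motif. By that measure it reported significant sites in the promoter of SAUR72 (AT3G12830), where the exact octamer was not found here. A gene without the exact octamer can thus still hold a site by the study's measure.

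The auxin response element TGTCTC, searched on both strands, stood before 21 of 43 SAUR genes (48.8%) and before 40.7% of all genes. It was found for 5 of 8 genes of the chromosome 1 cluster, 4 of 6 on chromosome 5, 2 of 7 and 2 of 4 in clusters A and B of chromosome 4, 0 of 4 on chromosome 3 and 8 of 14 single genes. The G-box CACGTG stood before 3 of 43 (6.98%) and before 14.1% of all genes. Within a cluster these windows can overlap, and a match of letters is a description, not a binding site.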

How the data were processed

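The deposited files hold no counts or normalized values: the authors listed each mapped mRNA-Seq read by chromosome, strand and leftmost position (no score or other measure), after alignment with Bowtie per the submitters' notes. Its version, the genome build and the treatment of reads with several matches are not given in the sources used here. Some positions exceed the TAIR10.1 chromosome lengths, so another build was used and no coordinate was converted. Genes were counted only in 250 kb windows in which the edges of read coverage lay within 30 bp of TAIR10.1 exon starts, next to windows of the same kind (204 windows, 17018 genes). Reads starting in merged exons, on either strand, were counted and scaled by the reads on all these genes. For ratios a library with 0 reads was set at 3, and no ratio was formed where both had 3 or fewer. Genes with at least 20 reads over the 4 libraries were described. Intervals are exact (Clopper-Pearson), 95%. Fisher's test with Benjamini-Hochberg adjustment, with a 4-fold limit as in the study's text, was tested on simulated data. Those data held counting error only, without copied reads or variation between plants, so they say nothing of either. In SAUR genes that hold both kinds, 3.23% of positions whose word of 29 bases recurs in the genome had a read, against 8.36% of the others.

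Members, gene lists and tests were chosen with earlier results of these data known. Values in all libraries are given for the 3 members of highest mean RPKM and the 2 of widest spread in each cluster and among the single genes, for AT3G12830, and for members with at least 20 reads in all and none in some library. The rest are given as reads or RPKM. Neighbours over 4-fold and listed pathway genes over 2-fold from Col-0 in any mutant were named. AT1G29470, SAUR9 and HA2 fall outside these rules and were chosen after their values were seen. Analyses used Python 3.11.15, NumPy 2.4.6, pandas 2.3.3, SciPy 1.17.1 and matplotlib 3.10.9.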

Additional observations from a re-analysis of the deposited data

How the results depend on the processing

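No paired analysis was possible because each genotype has 1 library. Over library size (all nuclear reads, median-ratio size factors), feature (whole gene, exons 30 bp longer or shorter), single counting of positions, read filters and repeated words, the median log2 ratio of the SAUR genes ranged from 1.19 to 1.73 in suvr5-1, from 0.30 to 0.64 in the double mutant and from -0.51 to 0.21 in the triple mutant. Counting each position once left 3 members over 2-fold higher in the double mutant and 3 in the triple mutant, and put the summed SAUR reads of the triple mutant at 0.998 times Col-0. With that setting the calls over all genes came to 134 up and 81 down in suvr5-1 (304 and 221 with every read), 143 and 110 in the double mutant (507 and 242), and 303 and 101 in the triple mutant (586 and 172). A minimum of 100 reads left 12 members over 2-fold higher in suvr5-1, 1 lower in the double mutant and 3 higher in the triple mutant. Without genes over 10% repeated words, the setting that gave the 0.21, 2 were over 2-fold lower in the double mutant and 3 in the triple mutant. Fewer genes were tested under both of these settings. The shares of all genes past 2-fold under single counting, the minimum of 100 reads and the repeat limit are not given here. The member counts under them are therefore not set against a background. Counts of members over 2-fold higher in suvr5-1 ran from 12 to 23, and 0 were over 2-fold lower under any setting. The filter on the 3 libraries other than the mutant, the alternatives for the summed reads, the sums without a leading gene and the shares over genes with 20 to 1122 reads were added after seeing the data. Of the medians and summed reads of single clusters and the sums over all 43 genes under these settings, 210 lay inside the interval of the reported value, 11 lay outside it on the same side of no difference or with an interval that spans it, and the sum at 0.998 turned direction. For the median of a single cluster the interval ran from its lowest to its highest member, so lying inside it says little about stability. The causes of these changes were not tested. Depth limits the 14 members under 20 reads.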
